A study of Mus musculus with 8 samples.

Results

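Haem oxygenase 1 (Hmox1), the enzyme that degrades haem, and 3 genes that act with it when a cell is loaded with haem or oxidants were followed in ATAC-seq data from mouse kidney tubuloids. In ATAC-seq, the Tn5 transposase cuts and tags open chromatin, so that reads pile up into peaks at accessible DNA. The peaks taken were every one assigned to Hmox1, Sqstm1, Prdx1 or Aco1, and every one that starts in a 70000 bp window of chromosome 8 around Hmox1. This gave 6 of the 6425 peaks in the deposited table. They were 1 peak each at Hmox1, Sqstm1, Prdx1 and Aco1, a peak upstream of Hmox1, and the peak of the neighbouring gene Mcm5.

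Tubuloids are small epithelial bodies that form when dissociated kidney cells are kept in Matrigel, here primary cells from the cortex of wildtype mice. The groups were 4 libraries of tubuloids given myoglobin for 12 h and 4 libraries of tubuloids given vehicle. The sources used here give neither the dose of myoglobin nor the age and sex of the mice. The series names 4 mice, but no label ties a library to a mouse, so that p-values describe the spread between these libraries, which may be partly technical.

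Myoglobin is the haem protein of muscle, which injures tubule cells when it reaches the kidney after muscle breakdown. Haem oxygenase 1 opens the haem ring and releases iron, carbon monoxide and biliverdin, and its gene is a standard marker of haem stress in the proximal tubule. Its transcription is held down by the haem-binding repressor BACH1 and driven by NRF2. In mouse, both act largely through antioxidant response elements in enhancers that lie upstream of the promoter. Sqstm1 encodes p62, an autophagy adaptor that also binds KEAP1, the inhibitor of NRF2. Prdx1 encodes a peroxiredoxin that removes hydrogen peroxide, and Aco1 encodes cytoplasmic aconitase, which becomes the iron regulatory protein IRP1 when it loses its iron-sulfur cluster. All values below are reads in a peak that the authors scaled between libraries and rounded.

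For Prdx1 and Aco1 the peaks covered the transcription start, and the promoters are shown for the response elements that their letters hold. Each runs from 250 bases before to 30 bases after the RefSeq start (GRCm38.p6, + strand, 5′ to 3′), at chr4:116685349-116685628 for Prdx1 and chr4:40143015-40143294 for Aco1. Capitals mark every match to the antioxidant response element, in its short form TGANNNNGC, or to the AP-1 site TGANTCA, on either strand.
Prdx1: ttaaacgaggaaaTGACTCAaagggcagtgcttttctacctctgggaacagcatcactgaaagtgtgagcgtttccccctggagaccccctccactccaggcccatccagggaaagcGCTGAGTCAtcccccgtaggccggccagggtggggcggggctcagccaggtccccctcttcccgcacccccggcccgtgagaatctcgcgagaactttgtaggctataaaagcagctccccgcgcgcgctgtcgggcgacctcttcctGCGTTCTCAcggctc
Aco1: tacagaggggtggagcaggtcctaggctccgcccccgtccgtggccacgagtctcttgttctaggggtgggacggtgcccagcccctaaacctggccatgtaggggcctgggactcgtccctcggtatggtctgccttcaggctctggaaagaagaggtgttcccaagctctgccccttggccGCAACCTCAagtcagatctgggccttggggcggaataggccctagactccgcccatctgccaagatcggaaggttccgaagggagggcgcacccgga

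The Prdx1 promoter held GCTGAGTCA, the reverse complement of the long form TGACNNNGC of the antioxidant response element, with an AP-1 site inside it. The element began 133 bases before the RefSeq start and ended 17 bases short of the Prdx1 peak, which ran from 107 bases before to 120 after that start. A second AP-1 site, TGACTCA, began 237 bases before the start, also outside the peak. The remaining match in Prdx1 was to the short form, on the reverse strand 16 bases after the start, inside the peak. In Aco1 the match was to the short form, on the reverse strand 67 bases before the start. The Sqstm1 and Mcm5 promoters held no match to the antioxidant response element or the AP-1 site. The Sqstm1 peak, 520 to 694 bases after the RefSeq start, lies outside the promoter stretch searched. The bases of the Sqstm1 peak and of the upstream Hmox1 peak were not available and were not searched. Of all 32851 RefSeq promoter windows of 300 bases, 41.3% held the short form, which includes the long form, 12.4% held the long form and 7.81% held an AP-1 site, so a match to the short form is common. The heat shock element GAANNTTC was found once each in Aco1 and Mcm5, inside their peaks, and in 7.86% of all promoters. The letters TATAAA, searched as the TATA box, began 29 bases before the start in Prdx1 and 1 base before it in Sqstm1. They were found in 13.6% of all promoters. The E-box CACGTG was found in none of Prdx1, Aco1, Sqstm1 and Mcm5, against 7.15% of all promoters. The GC box GGGCGG was found 1 time in Prdx1, 3 times in Aco1 and 3 times in Sqstm1, and in 35.7% of all promoters. A match is a description of the letters and not evidence that a factor bound. Promoter entries matched 4 of the 5 genes, Sqstm1, Prdx1, Aco1 and Mcm5, and no sequence is shown for Hmox1.

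The table that holds these peaks is mostly a table of promoters. Of its 6425 peaks, 64.8% lay within 1000 bp of an assigned transcription start, with a median value of 16 over peaks and libraries. Library totals ran from 124415 to 126782 because of the authors' scaling. The steps between the values of a column gave an estimate of its reads, 67645 to 123453 per library with myoglobin and 130568 to 200519 with vehicle (p = 0.0286 by exact two-sided permutation, the smallest that 4 against 4 libraries allow). Myoglobin values thus carry the larger counting error, and myoglobin replicates 3 and 2 were the shallowest. Of 24 tubule epithelium marker genes, 7 had a peak (Cdh1, Cdh16, Cldn4, Elf3, Epcam, Pax2 and Scnn1g), with a summed value of 163 to 182 with myoglobin and 151 to 183 with vehicle, and no peak was listed for the proximal tubule genes Lrp2, Slc34a1 or Hnf4a. No peak was listed for any of 8 endothelial, 9 fibroblast and pericyte, 9 immune or 6 podocyte markers.

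The peak upstream of Hmox1 was 2.48 times as high with myoglobin as with vehicle, while the peak at the Hmox1 start had the same mean in both groups. The upstream peak lies on chromosome 8, 75083896 to 75084066 (mm10), with its centre 9640 bp before the transcription start of Hmox1 as the table gives it. It sits between genes, 13775 bp past the end of Tom1 and 3744 bp past the end of a pseudogene, the nearest RefSeq entry before it. The table assigned the peak to a gene without a symbol, whose start lies 4840 bp from the peak centre. Whether that gene is this pseudogene was not checked. The values of the upstream peak with myoglobin were 24, 20, 13 and 25 (replicates 1 to 4), and with vehicle 9, 6, 8 and 10. All 4 myoglobin libraries stood above all 4 vehicle libraries, and the lowest of them, replicate 3, was also the shallowest. The means were 20.5 ± 5.45 with myoglobin and 8.25 ± 1.71 with vehicle (SD, n = 4 each). On the log2(value + 1) scale the difference was 1.20 ± 0.29 (SE), with a 95% interval of 0.62 to 1.78 and an adjusted p of 0.0429 by limma over all 6425 peaks. In the same test 0.249% of all peaks passed, 0.202% higher and 0.0467% lower with myoglobin. Non-overlapping groups were found at 3.04% of all peaks, 1.45% with the myoglobin libraries higher and 1.59% with them lower. Among all peaks the upstream site had the 16th largest rise and the 14th smallest p.

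**Figure D1:**
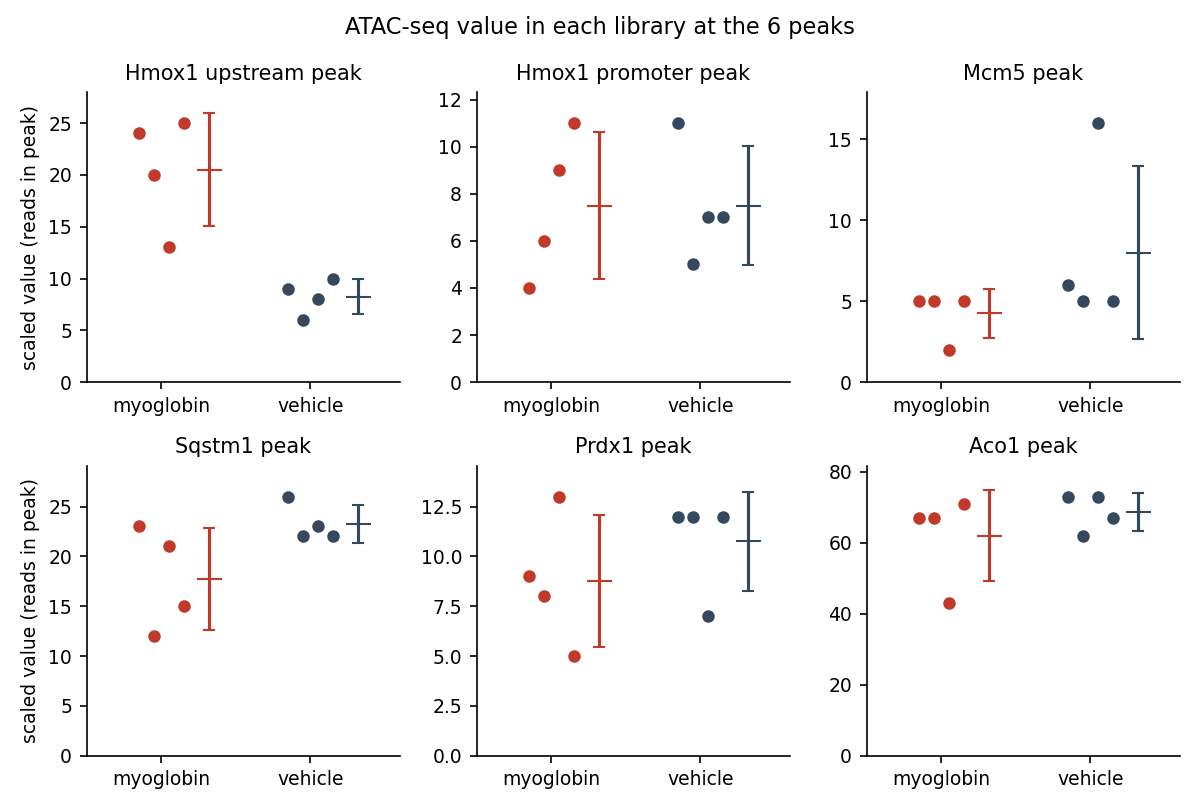
Scaled ATAC-seq value (vertical axis, from 0, with its own scale in each panel) of the 6 peaks in each of the 4 myoglobin libraries (red, left) and 4 vehicle libraries (dark, right), replicates 1 to 4 from left to right, with the mean and SD beside them. In the upstream Hmox1 panel the lowest myoglobin value, 13, lies above the highest vehicle value, 10, and in the other 5 panels the groups overlap.

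The rise upstream of Hmox1 lay close to the threshold, and 7 of 17 alternatives kept the call. It was lost with no variance trend (adjusted p = 0.247 by limma) and with a pseudocount of 0.1 (adjusted p = 0.0712 by limma). With the replicate number as a block it was lost too (adjusted p = 0.0725 by limma). It was also lost on leaving out any 1 of vehicle replicates 1 to 4 or myoglobin replicates 1, 2 and 4 (adjusted p 0.0645 to 0.236 by limma, log2 difference 1.07 to 1.29), and without myoglobin replicate 3 the adjusted p was 0.00377. Without both of the shallowest libraries, myoglobin replicates 2 and 3, the log2 difference was 1.48 and the adjusted p 0.00961. The estimated reads at this site were 68 over the myoglobin libraries and 44 over the vehicle libraries, a depth-corrected ratio of 2.62 with an exact binomial 95% interval of 1.77 to 3.93, which covers counting error only. Within each group the spread between libraries was 1.01 times (myoglobin) and 0.530 times (vehicle) the variance that read sampling would give. In such bulk samples, a larger share of cells with the site open and a more open site in each cell cannot be told apart.

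The Hmox1 promoter peak, at 75093635 to 75093740 on the same chromosome, covers 14 to 119 bp after the transcription start given in the table. Its values were 4, 6, 9 and 11 with myoglobin and 11, 5, 7 and 7 with vehicle, so the groups overlapped throughout. The means were 7.50 ± 3.11 with myoglobin and 7.50 ± 2.52 with vehicle (SD, n = 4 each), with a log2 difference of -0.03 ± 0.39 (SE) and an adjusted p of 0.993 by limma. The 95% interval, -0.80 to 0.74, leaves room for a ratio of value + 1 between 0.574 and 1.66. Only 24 myoglobin and 40 vehicle reads were estimated at this low peak. There the added 1 understates changes, so these bounds do not exclude a larger rise or fall in the values themselves. Of all peaks, 12.4% had a lower mean value than this promoter and 44.1% a lower mean than the upstream site. Per 100 bp, the upstream peak held 12.0 with myoglobin and 4.82 with vehicle, and the promoter peak 7.08 in each group.

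Apart from rounding, the ratio of the upstream site to the promoter in the same library does not depend on how libraries were scaled. That ratio was 6.0, 3.33, 1.44 and 2.27 in myoglobin replicates 1 to 4, and 0.818, 1.20, 1.14 and 1.43 in vehicle replicates 1 to 4. On the log2(value + 1) scale the upstream site stood above the promoter by 1.38 ± 0.77 with myoglobin and by 0.15 ± 0.30 with vehicle (SD, n = 4 each). The difference between groups was 1.23 (exact two-sided permutation over the 70 ways to divide 8 libraries, p = 0.0286, the smallest possible). The myoglobin libraries were above the vehicle libraries without overlap, narrowly so for myoglobin replicate 3 at 0.49 against vehicle replicate 4 at 0.46. Estimated reads upstream and at the promoter were 6.97 and 4.83 in myoglobin replicate 3, and 13.7 and 9.56 in vehicle replicate 4. Unlike the ratio, the log2(value + 1) difference depends on scaling through the added 1. The exact permutation p stayed at 0.0286 with a pseudocount of 0.1 or 5, and with libraries rescaled to equal totals or by median of ratios. So small a gap, and with it the p, can still turn on rounding, which was not tested.

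**Figure D2:**
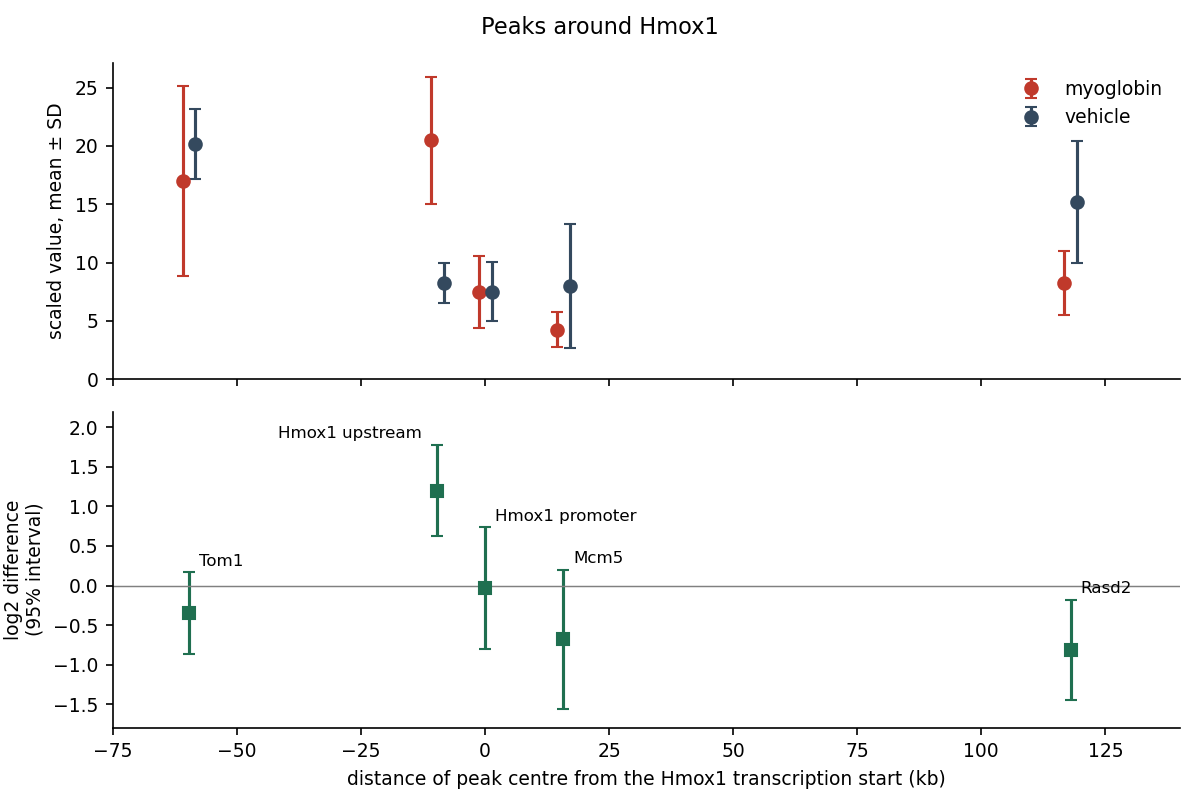
Peaks around Hmox1 by the distance of the peak centre from the Hmox1 transcription start (horizontal axis, kb; group means are drawn slightly apart). The upper panel gives the scaled value as mean ± SD over 4 libraries per group (myoglobin red, vehicle dark) and the lower panel the log2 difference, myoglobin minus vehicle, with its 95% interval from limma. The upstream site at 1.20 stands above 0, the Tom1, Hmox1 promoter and Mcm5 intervals include 0, and the Rasd2 interval, -1.45 to -0.18, lies below it.

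The other peaks near Hmox1 had lower or equal means with myoglobin, and none passed the test. Mcm5 encodes a subunit of the replicative helicase, and its promoter peak (75109332 to 75109460) is the nearest on the far side, 15775 bp from the Hmox1 start. Its values were 5, 5, 2 and 5 with myoglobin and 6, 5, 16 and 5 with vehicle. Vehicle replicate 3 alone was high and the rest of both groups lay between 2 and 6, giving a log2 difference of -0.68 ± 0.44 (SE, adjusted p = 0.752 by limma) and -0.32 without that library. Tom1, which encodes an endosomal sorting protein, is the next peak outside the window on the upstream side, and read 25, 23, 9 and 11 with myoglobin and 24, 21, 17 and 19 with vehicle. Its log2 difference was -0.35 ± 0.26 (SE, adjusted p = 0.805 by limma), with myoglobin replicates 1 and 2 near the vehicle values and replicates 3 and 4 below them. Rasd2, which encodes the small GTP-binding protein Rhes, is the next peak on the other side, 117988 bp from the Hmox1 start. It read 7, 5, 11 and 10 with myoglobin and 12, 14, 23 and 12 with vehicle, so all myoglobin libraries were below all vehicle libraries. Its log2 difference was -0.82 ± 0.32 (SE, unadjusted p = 0.0123, adjusted p = 0.551 by limma), and 7.60% of all peaks had an unadjusted p under 0.05.

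Set against each of its 4 neighbours within a library, the upstream site was relatively higher with myoglobin every time. The differences on the log2(value + 1) scale were 1.23 against the Hmox1 promoter, 1.55 against Tom1, 1.88 against Mcm5 and 2.01 against Rasd2. Each had p = 0.0286 by the exact two-sided permutation test, and 0.0286 after adjustment over the 4 comparisons. All share the upstream peak, whose own groups do not overlap, and those with Tom1, Mcm5 and Rasd2 were added after the data were seen. These p-values are therefore no separate support for its rise. No other peak within 1 Mb of the Hmox1 start passed, and these 4 had a median log2 difference of -0.52, against 0.01 over all 378 peaks of chromosome 8. Of those 378 peaks, 2 were called by limma, the upstream site among them. The neighbours' own negative differences are part of these values, and the upstream site on its own rose by 1.20.

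**Figure D3:**
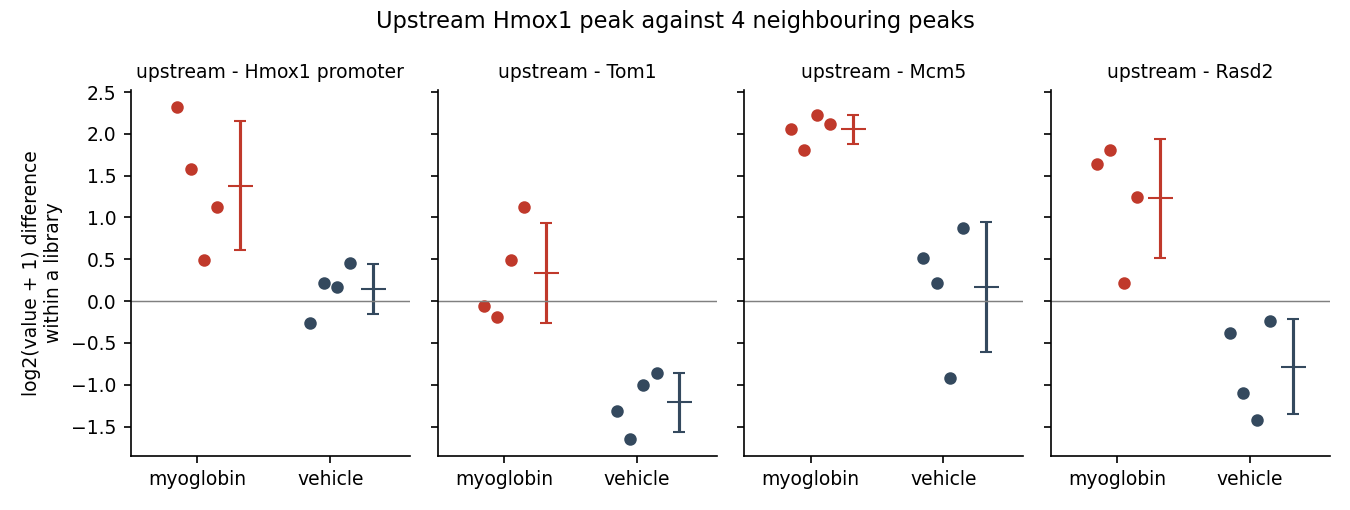
Difference in log2(value + 1) between the upstream Hmox1 peak and each of 4 neighbouring peaks within a library (vertical axis), for 4 myoglobin libraries (red, left) and 4 vehicle libraries (dark, right), with mean and SD. In every panel the myoglobin libraries lie above the vehicle libraries, with group differences of 1.23 to 2.01.

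None of the peaks at Sqstm1, Prdx1 and Aco1 passed the test, and all 3 had a lower mean with myoglobin. With Hmox1 and Mcm5, this left 1 of the 6 peaks called, the upstream site, against 0.249% of all peaks. The 6 peaks were chosen with earlier results of these data known, so this is no enrichment. The Sqstm1 peak, on chromosome 11 at 50210127 to 50210301, lies inside the gene, 526 to 700 bp after the start of this minus-strand gene as the table gives it. Its values were 23, 12, 21 and 15 with myoglobin and 26, 22, 23 and 22 with vehicle. Myoglobin replicate 1 lay among the vehicle libraries and the other 3 below them, and the means were 17.8 ± 5.12 with myoglobin and 23.2 ± 1.89 with vehicle (SD, n = 4 each). The log2 difference was -0.41 ± 0.24 (SE), with an adjusted p of 0.704 by limma and an interval of -0.88 to 0.06. A rise of value + 1 by more than 1.04 times lay outside that interval. On leaving out 1 library the difference ran from -0.54 without myoglobin replicate 1 to -0.25 without myoglobin replicate 2.

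The Prdx1 peak, on chromosome 4 at 116685492 to 116685718, covers the start of the gene. Its values were 9, 8, 13 and 5 with myoglobin and 12, 12, 7 and 12 with vehicle, with 13 in a myoglobin library as the highest of all 8. The means were 8.75 ± 3.30 with myoglobin and 10.8 ± 2.50 with vehicle (SD, n = 4 each). The log2 difference was -0.30 ± 0.34 (SE, adjusted p = 0.904 by limma), and its interval was -0.98 to 0.37. On leaving out 1 library the difference ran from -0.50 without myoglobin replicate 3 to -0.09 without myoglobin replicate 4.

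Aco1 had by far the tallest of the 6 peaks, on chromosome 4 at 40142896 to 40143564, with a mean value above 98.7% of all peaks. At 669 bp it was also the widest, and per 100 bp it held 9.27 with myoglobin and 10.3 with vehicle, while the Sqstm1 peak held 10.1 with myoglobin and 13.3 with vehicle. Its values were 67, 67, 43 and 71 with myoglobin and 73, 62, 73 and 67 with vehicle. Myoglobin replicate 3 alone was below the vehicle range and the other 3 lay inside it. The log2 difference was -0.17 ± 0.14 (SE, adjusted p = 0.838 by limma), and -0.01 without myoglobin replicate 3. The interval of -0.44 to 0.10 is the narrowest of the 6, corresponding to a ratio of value + 1 between 0.735 and 1.07.

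Ordered by height per 100 bp with vehicle, the 6 peaks ran from Sqstm1 at 13.3 and Aco1 at 10.3 through the Hmox1 promoter at 7.08 and Mcm5 at 6.20 to the upstream Hmox1 site at 4.82 and Prdx1 at 4.74. With myoglobin the upstream Hmox1 site, at 12.0, was the highest of the 6, followed by Sqstm1 at 10.1, Aco1 at 9.27, the Hmox1 promoter at 7.08, Prdx1 at 3.85 and Mcm5 at 3.29. Order between peaks was not tested.

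**Figure D4:**
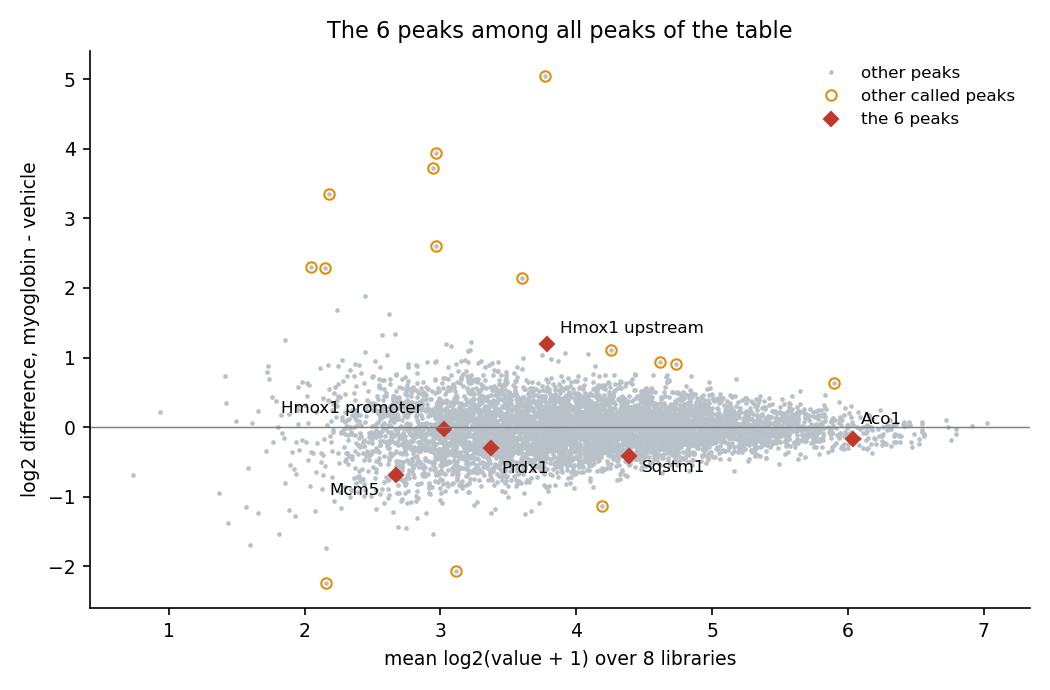
Log2 difference, myoglobin minus vehicle (vertical axis), against mean log2(value + 1) over 8 libraries (horizontal axis) for all 6425 peaks, with the 6 peaks as red diamonds and the other 15 called peaks as open circles. The upstream Hmox1 peak stands above the cloud at 1.20, and the other 5 lie inside it between -0.68 and -0.03.

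The wider pathway was read from 8 lists holding 155 genes, of which 54 had 57 peaks in the table. Of these 57 peaks 0 passed the limma test in either direction, 5 had an unadjusted p under 0.05, and 2 had non-overlapping groups. Their median log2 difference was 0.00, against -0.02 over all peaks, and 29 of 57 were above 0, against 3025 of 6425. Of all peaks, 0.249% passed the test, 7.60% had an unadjusted p under 0.05 and 3.04% did not overlap. With so few calls over the whole table, 0 of 57 is near the background and is no result about these genes.

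Genes that break down or carry haem had 4 peaks with a median of -0.08, with 0 called. The highest was Hebp2, which encodes a haem-binding protein, with 16, 11, 28 and 19 with myoglobin and 10, 16, 15 and 7 with vehicle (log2 difference 0.58 ± 0.29 SE, unadjusted p = 0.0480, adjusted p = 0.649 by limma). The lowest was Lrp1, the receptor that takes up the haem-hemopexin complex, at -0.21 ± 0.23 (SE). Haem synthesis had 2 peaks, at Ppox (0.00) and Abcb10 (-0.07).

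Iron storage, transport and sensing had 10 peaks with a median of -0.04, with 0 called and 5 above 0. Slc25a28, which encodes the mitochondrial iron importer mitoferrin 2, had 48, 44, 32 and 43 with myoglobin and 55, 58, 64 and 53 with vehicle. All 4 myoglobin libraries were below all 4 vehicle libraries, with a log2 difference of -0.46 ± 0.15 (SE, unadjusted p = 0.00314, adjusted p = 0.325 by limma), and the lowest was again the shallow replicate 3. Pcbp2, a poly(C)-binding protein that also delivers iron to ferritin, had 33, 37, 60 and 29 with myoglobin and 28, 29, 26 and 30 with vehicle. Its log2 difference was 0.42 ± 0.19 (SE, unadjusted p = 0.0273, adjusted p = 0.595 by limma), with the highest value in replicate 3. The ferritin chain genes Fth1 and Ftl1 stood at 0.02 ± 0.34 and 0.17 ± 0.21 (SE), and the transferrin receptor gene Tfrc at 0.07 ± 0.19 (SE).

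NRF2 pathway regulators had 7 peaks with a median of -0.09, with 0 called and 1 above 0. That was Bach1, the gene of the haem-sensing repressor, at 6, 20, 17 and 17 with myoglobin and 10, 16, 9 and 12 with vehicle (log2 difference 0.24 ± 0.31 SE, adjusted p = 0.913 by limma). Nfe2l2, which encodes NRF2 itself, was at -0.11 ± 0.15 (SE), and the lowest was its relative Nfe2l1 at -0.18 ± 0.15 (SE, adjusted p = 0.842 by limma). NRF2 target and glutathione enzymes had 10 peaks with a median of 0.06. The highest was Ugdh, which encodes UDP-glucose dehydrogenase, with 30, 24, 35 and 41 with myoglobin and 22, 21, 18 and 29 with vehicle (log2 difference 0.51 ± 0.21 SE, unadjusted p = 0.0162, adjusted p = 0.565 by limma). The lowest was Slc3a2, a subunit of the cystine transporter, at -0.27 ± 0.25 (SE). Gclm, the modifier subunit of glutathione synthesis, was at -0.17 ± 0.35 (SE).

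Peroxide and superoxide defence genes had 8 peaks with a median of 0.02. Mitochondrial superoxide dismutase, Sod2, was the highest at 0.16 ± 0.19 (SE), and the thioredoxin inhibitor gene Txnip the lowest at -0.38 ± 0.27 (SE, adjusted p = 0.786 by limma), below Prdx1 at -0.30. Selective autophagy genes had 9 peaks with a median of -0.04, with Sqstm1 the lowest and the autophagy conjugation gene Atg5 the highest at 0.29 ± 0.22 (SE). Nbr1, an autophagy adaptor related to p62, was at 0.00 ± 0.19 (SE). Aconitase and citrate cycle genes had 8 peaks with a median of 0.06, of which Aco1 was the lowest and the only value below 0. Acly, which encodes ATP citrate lyase, was the highest with 28, 29, 34 and 34 with myoglobin and 25, 23, 22 and 22 with vehicle. These groups did not overlap, and the log2 difference was 0.42 ± 0.20 (SE, unadjusted p = 0.0367, adjusted p = 0.620 by limma).

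**Figure D5:**
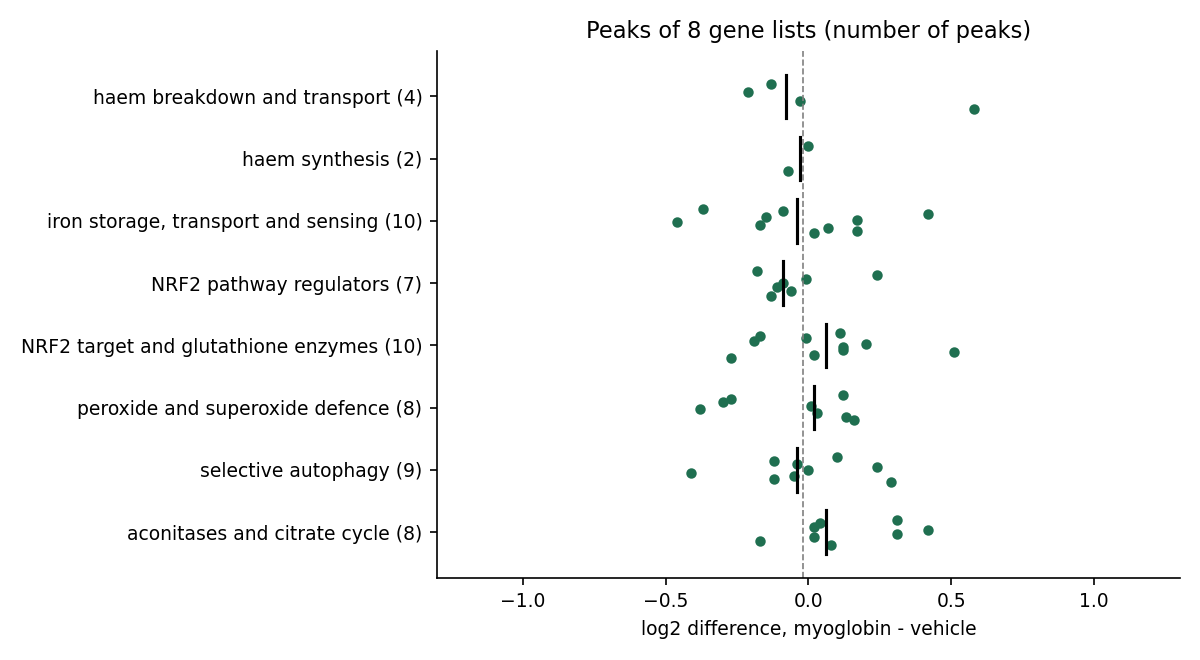
Log2 difference, myoglobin minus vehicle (horizontal axis), of each peak in 8 gene lists (rows, with the number of peaks; points are spread vertically for legibility only). Black bars are list medians, from -0.09 to 0.06, and the dashed line is the median of all peaks, -0.02.

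Across the 8 libraries, the peaks most like the upstream Hmox1 site in their log2(value + 1) were sought among 4218 named peaks with a mean of at least 5. The 5 highest Pearson correlations were with Cdkl2 (0.979), Ankle2 (0.940), Specc1l (0.910), Kctd7 (0.906) and Rab32 (0.897). Of these, Specc1l was called itself, at 35.8 with myoglobin and 18.5 with vehicle (log2 difference 0.91, adjusted p = 0.0175 by limma), and the other 4 were not called, with log2 differences of 0.36 to 0.88. For the Hmox1 promoter the 5 were Trp53bp2 (0.946), Rab38 (0.943), Chchd7 (0.920), Pde6d (0.913) and Mos (0.911), with log2 differences of -0.12 to 0.02. With 8 libraries that share their depth and scaling, and so many peaks searched, such values are a description only.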

How the data were processed

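ATAC-seq was run on 4 myoglobin and 4 vehicle libraries (12 h, 50000 cells per reaction, per the labels' protocols). Per the submitters' processing notes, the build was mm10 and the tools included STAR 2.7.10a, Trimmomatic 0.39, featureCounts, Picard 3.0.0 and DESeq2 1.36.0. The sources used here do not give their roles and order, the peak caller, duplicate removal or any Tn5 shift. Peaks formed 1 set for all libraries.

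The deposited values are treated as a score, because the authors had scaled them between libraries and rounded them, so count tests were not run. Column spacing gave each scaling factor by maximum likelihood (tested on simulated columns), and value divided by factor gave estimated reads. Intervals on reads are exact binomial at 95% and cover counting error only.

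The test was limma 3.58.1 (R 4.3.3) on log2(value + 1), which understates changes of low peaks, with treatment as the only term, no filter, a variance trend, and p-values adjusted by Benjamini-Hochberg over 6425 peaks at 0.05. It was tested on simulated data. The variance prior had 78.5 degrees of freedom and the libraries 6. Each limma SE and p therefore rests mainly on the spread between libraries at peaks of like height, and less on that of the peak itself. Differences between peaks within libraries used exact permutation (scipy 1.17.1).

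Members, gene lists and motifs were chosen with earlier results of these data known. Named were all members, the nearest peak on each side of the chromosome 8 window, the highest and lowest peak of each list with at least 3 peaks, and the 5 peaks most correlated with each Hmox1 peak. Other list genes were named after their values were seen. Coordinates and transcription starts are those of the table. Promoter sequences and gene spans are from RefSeq GRCm38.p6, and peak ends may be off by 1 base against them, since the file does not state its counting. The comparisons of the upstream peak with Tom1, Mcm5 and Rasd2 were added after the data were seen.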

Additional observations from a re-analysis of the deposited data

Results flagged for a closer look

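In 4 of 16 groups of 4 libraries at the 6 peaks and their 2 flanking peaks, a single library stood apart by the gap test of Dixon, which flags about 1 in 20 groups by chance for continuous values. These are small whole numbers, where any value stands apart from 3 equal ones. At Mcm5, the library at 2 stood below 5, 5 and 5 with myoglobin (replicate 3), and the library at 16 stood above 5, 5 and 6 with vehicle (replicate 3). At Prdx1, the vehicle library at 7 (replicate 3) stood below 12, 12 and 12. At Aco1, the myoglobin library at 43 (replicate 3) stood below 67, 67 and 71. All 4 were replicate 3, which is the shallowest library of each group, and the part of depth in these values was not tested.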

How the results depend on the processing

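The rise upstream of Hmox1 kept its direction in all 17 alternatives (log2 difference 0.93 to 1.48) and its call in 7 of them, with adjusted p from 0.00377 to 0.247 by limma. The call was lost with a pseudocount of 0.1 (1.28, adjusted p = 0.0712) and with no variance trend (1.20, adjusted p = 0.247). With each library left out in turn the difference was 1.07 to 1.39. The Hmox1 promoter peak, near 0, ran from -0.23 to 0.20 on leaving out a library, and the peaks of Sqstm1 (-0.54 to -0.25), Prdx1 (-0.50 to -0.09) and Mcm5 (-0.82 to -0.32) moved widely in the same way, though they stayed below 0 and uncalled in every alternative that tested them. Aco1 ran from -0.24 to -0.01 on leaving out a library and was 0.01 without myoglobin replicates 2 and 3. The upstream minus promoter difference was 0.91 to 1.53 with a library left out and 1.57 without myoglobin replicates 2 and 3; these designs cannot give an exact permutation p under 0.0571 and 0.133, so their p-values do not bear on it. Peaks called higher numbered 13, and 8 with a pseudocount of 0.1, 7 with no variance trend and 7 to 13 with a library left out. Peaks called lower numbered 3, and 1 with a pseudocount of 0.1, 5 with a pseudocount of 5, 5 with library weights, 7 without myoglobin replicates 2 and 3, 0 with no variance trend (242 at an unadjusted p under 0.05) and 0 to 4 with a library left out, where the 0 came without vehicle replicate 1 or 3 (177 and 156 at an unadjusted p under 0.05). Where a call changed, the cause was not tested. Filtering at a mean of 10 left the Hmox1 promoter, Prdx1 and Mcm5 peaks untested.

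Same-numbered libraries did not deviate together (correlations of -0.0132 to 0.0258). At these low read numbers this cannot show whether same-numbered libraries came from the same mouse, and no label settles it. With the replicate number as a block, the upstream difference was 1.20 (adjusted p = 0.0725 by limma), 9 peaks were called higher and 1 lower, and the upstream minus promoter difference was 1.23 (exact permutation p = 0.125, the smallest for 4 pairs). No other call of these 6 peaks changed with the block.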
